A study of Mus musculus with 4 samples.

Results

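Smooth-muscle contractile genes were followed across RNA sequencing libraries labelled as uterine natural killer (NK) cells. The group holds 38 genes, chosen by symbol as the contractile, cytoskeletal, channel and regulator genes of smooth muscle. All 38 were found among the 21993 genes of the files, each in a single row. The cells came from the uterus of female mice on gestational day gd11.5, mated with B6 males, and are labelled as sorted by flow cytometry for CD3-, CD45+ and NK1.1+. The compared groups were Ncr1Cre mice (n = 2 libraries), in which Cre recombinase is driven from the NK-cell gene Ncr1, and control mice without Cre (n = 2). Whether the paired libraries of a genotype represent different mice, or pools of mice, is not in the labels. The p-values therefore refer to the scatter among these 4 libraries, part or all of which could be technical.

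Smooth muscle contracts when calcium and calmodulin activate myosin light-chain kinase, which phosphorylates the regulatory light chain and lets smooth-muscle myosin pull on actin filaments. Calponin, caldesmon and tropomyosin sit on those filaments, while desmin, filamin and vinculin link them to the cell's scaffold and its attachments. In the uterus these proteins form the myometrium and the walls of vessels, and the serum response factor SRF with its partner myocardin switches many of the genes on through a DNA element called the CArG box. Many relatives of the muscle proteins work in the cytoskeleton of nearly every cell. The members were therefore split by textbook knowledge into 15 muscle-restricted genes, 18 widely expressed genes and 5 receptor, channel and junction genes used outside muscle too. Like the other lists, this split was made with earlier results of these data known.

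Promoter sequences were examined for CArG boxes because SRF and many of its known targets are members. The RefSeq promoter table (GRCm38.p6, 250 bases before to 50 after an annotated start) held 34 of the 38 members. It had no entry for Actg2, Myh11, Tagln and Myocd. A strict CArG box on either strand was found in promoters of 5 of these 34 genes (14.7%), against 1.81% of all 27025 genes in the table. Counted by promoter, the shares were 12.5% of 40 and 1.63% of 32851. Allowing 1 of the inner A or T bases to be C or G gave 8 of 34 member genes (23.5%) and 11.3% of all genes. Genes with several promoters have more chances of a match, and a match is a run of letters, not a shown binding site. The strict matches lay in Cnn2, Myl6, Myl9, Srf and Vcl, all of the widely expressed class. The 11 muscle-restricted genes in the table had 0 strict matches, and 3 of them (Acta2, Pdlim3 and Synm) had the relaxed form. The matches stand in capitals, 5′ to 3′ on the strand of the gene, within a few flanking bases, so that the letters can be set beside the values of each gene.
Acta2, upstream match (chr19:34255438-34255467, minus strand): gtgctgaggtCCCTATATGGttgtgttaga
Acta2, match nearer the start (chr19:34255388-34255417, minus strand): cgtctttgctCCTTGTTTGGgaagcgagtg
Pdlim3 (chr8:45885372-45885411, plus strand): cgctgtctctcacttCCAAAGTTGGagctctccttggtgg
Synm (chr7:67759962-67759991, minus strand): caacggggagCCTCATAAGGtgtcccagat
Myl9 (chr2:156775288-156775389, plus strand): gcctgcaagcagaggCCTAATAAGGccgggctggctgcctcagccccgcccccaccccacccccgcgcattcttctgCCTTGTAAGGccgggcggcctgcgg
Cnn2 (chr10:79988529-79988568, plus strand): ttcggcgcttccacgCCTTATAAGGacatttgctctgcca
Vcl (chr14:20929156-20929195, plus strand): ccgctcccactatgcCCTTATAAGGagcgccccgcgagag
Myl6 (chr10:128493040-128493069, minus strand): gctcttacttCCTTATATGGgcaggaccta
Srf (chr17:46556200-46556259, minus strand): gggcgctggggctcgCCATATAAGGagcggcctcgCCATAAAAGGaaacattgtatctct
The first matched base stood 34 bases before the annotated start in Acta2 at the nearer match, 50 in Myl6, 56 in Cnn2 and 62 and 82 in Srf. In Myl9 the upstream match is strict and the downstream one is relaxed. In expression, the genes carrying these letters ranged from Acta2, which was 8.59-fold lower in Ncr1Cre, to Srf, which had the higher mean there.

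The libraries differed widely beyond these genes. Of 11762 genes whose mean over the libraries reached 1 FPKM (fragments per kilobase of transcript, scaled to the mapped fragments of the library), 2071 (17.6%) were called lower in Ncr1Cre and 3638 (30.9%) higher, by limma on log2(FPKM + 1) with Benjamini-Hochberg adjustment and an adjusted p under 0.05. The median difference over tested genes was 0.11, and it moved to -0.05 after median rescaling or quantile normalization. The split of calls moved with it, to 3069 lower (26.1%) and 2632 higher (22.4%) after rescaling and to 3032 lower (25.8%) and 2615 higher (22.2%) after quantile normalization. Depth was estimated from the steps of low values at 21000000 to 38520000 fragments per library, at which a single fragment of a 1 kb transcript amounts to 0.026 to 0.0476 FPKM. The defining genes of the labelled cell type were low, and the libraries do not show the profile of sorted NK cells. Klrb1c, the gene of NK1.1, stood at 0.45 to 0.97 FPKM over the 4 libraries, while the collagen gene Col1a1 of stroma stood at 4459 to 8359 and the keratin gene Krt8 of epithelium at 141 to 669. Ncr1 was listed at 0 and 0.15 FPKM in Ncr1Cre and at 0.14 and 0.36 in control, and Ptprc, the gene of CD45, stood at 4.39, 5.16, 2.89 and 2.57 in the same order.

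Most tested members were lower in the Ncr1Cre libraries. Of the 38 members, 33 passed the filter of 1 FPKM, and 26 of these were called lower and 0 higher, beside 17.6% and 30.9% of all genes. Without adjustment limma called 1 member higher, Srf, beside 35.1% of all genes. With the replicate number as a block Srf passed after adjustment, beside 32.4% of all genes called higher in that fit. The libraries of the genotypes did not overlap for 29 of the 33 tested members, 26 lower and 3 higher in Ncr1Cre, beside 29.9% and 46.4% of all genes. The muscle-restricted members had 10 of 11 tested called lower, with a median log2 difference of -1.20. Both include Synm, which is itself the median gene and whose Ncr1Cre mean lay under the filter, so that it was tested because of its control libraries. The widely expressed members had 12 of 17 called lower, with a median of -0.44. Of the receptor, channel and junction genes 4 of 5 were called lower, with a median of -0.76. Over all genes tested the median was 0.11. After median rescaling or quantile normalization 26 members were called lower as well. The muscle-restricted median was -1.82 with a pseudocount of 0.1. It was -1.84 over genes averaging 5 FPKM or more, where Synm is left out and 9 muscle-restricted members were called lower. Without a filter, where 6.09% of 21993 genes were called lower, 6 widely expressed members were. In bulk libraries such as these, fewer cells of a type and less RNA per cell cannot be told apart.

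**Figure D1:**
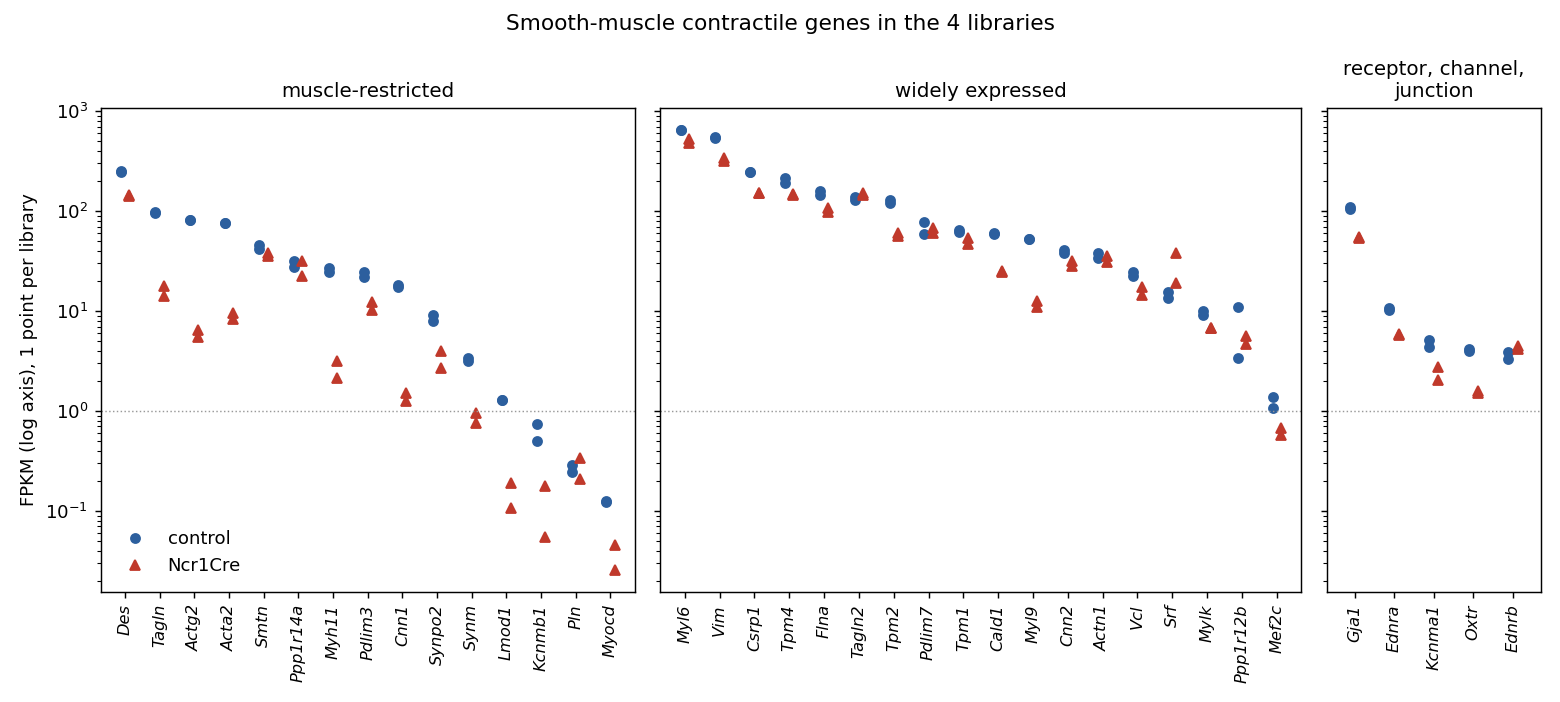
FPKM of each member (log axis, 1 point per library) in control (circles) and Ncr1Cre (triangles), by class and ordered by the control mean; the dotted line marks 1 FPKM. The libraries of Acta2, Actg2, Myh11, Cnn1 and Tagln stand far apart between the genotypes, while those of Ppp1r14a, Actn1 and Pdlim7 overlap.

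The smooth-muscle actins were among the members that fell furthest. Actg2, the actin of visceral smooth muscle, stood at 5.49 and 6.49 FPKM in Ncr1Cre and at 80.8 and 81.5 in control. The control libraries were nearly equal, and both lay far above both Ncr1Cre libraries. Its mean fell 13.6-fold (log2 difference -3.56, SE 0.095, limma adjusted p = 0.000126). Acta2, the alpha actin of vascular and other smooth muscle, stood at 8.27 and 9.47 FPKM in Ncr1Cre and at 75.6 and 76.7 in control. Again no Ncr1Cre library came near a control library. Acta2 fell 8.59-fold (-2.97, SE 0.088, limma adjusted p = 0.000126). The muscle actins share nearly all of their coding sequence, and how the authors' counting divided shared reads is not given in the sources used here, so their separate values are uncertain. Acta1, the skeletal-muscle copy and not a member, was also lower, at 0.38 ± 0.086 FPKM (SD, n = 2) against 2.65 ± 0.11.

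The motor and filament-binding genes of the muscle-restricted class fell 5.98- to 12.9-fold. Myh11, the smooth-muscle myosin heavy chain, stood at 3.18 and 2.15 FPKM in Ncr1Cre and at 27.0 and 24.8 in control, a 9.72-fold fall (-2.89, SE 0.16, limma adjusted p = 0.000297). Cnn1, basic calponin, which restrains the actin-activated myosin ATPase, stood at 1.26 and 1.51 FPKM in Ncr1Cre and at 17.3 and 18.4 in control. It fell 12.9-fold (-2.98, SE 0.10, limma adjusted p = 0.000145). Tagln, transgelin or SM22, an actin-binding protein abundant in smooth muscle, stood at 17.9 and 14.2 FPKM in Ncr1Cre and at 94.98 and 97.2 in control, a 5.98-fold fall (-2.52, SE 0.12, limma adjusted p = 0.000241). In each of these 3 genes the libraries of the genotypes were well separated. Tagln overlaps exons of Pcsk7 on the other strand in the reference annotation, and Pcsk7 lay between 5.43 and 8.91 FPKM in all 4 libraries. Ordered by log2 difference over the 11762 genes tested, 6 of the 12 lowest places were held by members: these 5 genes and Myl9.

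Lmod1, leiomodin, which nucleates actin filaments in smooth muscle, was too low to be tested by the filter. It stood at 0.11 and 0.19 FPKM in Ncr1Cre and at 1.27 and 1.28 in control, 8.63-fold apart in the mean. Over its annotated transcript of 3948 bases this came to an estimated 10.9 and 17.0 fragments against 193.9 and 106.0. In the fit without a filter Lmod1 was called lower as well (log2 difference -0.99, limma adjusted p = 0.0132).

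Intermediate-filament and Z-disc-like genes of the class fell less. Des, desmin, the muscle intermediate filament, which mouse decidual cells make as well, was the most abundant muscle-restricted member. It stood at 144 and 143 FPKM in Ncr1Cre and at 254 and 245 in control, a 1.74-fold fall (-0.80, SE 0.060, limma adjusted p = 0.000654). Synm, synemin, a partner of desmin, went from 3.27 ± 0.14 FPKM (SD, n = 2) in control to 0.86 ± 0.14 in Ncr1Cre. It overlaps Ttc23 on the other strand, which stood at 4.24 to 5.5 FPKM over the 4 libraries and was not called. Synpo2, myopodin, an actin-bundling protein of the Z-disc, stood at 4.001 and 2.66 FPKM in Ncr1Cre and at 9.21 and 7.998 in control. It fell 2.58-fold, with a wider interval (-1.16, 95% interval -1.61 to -0.71, limma adjusted p = 0.00532), and was not called without a filter (adjusted p = 0.0684). Pdlim3, an actinin-binding protein of muscle, fell from 23.0 ± 1.77 to 11.3 ± 1.47 (2.04-fold, limma adjusted p = 0.00253). Smtn, smoothelin, stood at 37.7 and 35.2 FPKM in Ncr1Cre and at 46.2 and 42.0 in control. Its small fall (1.21-fold) passed narrowly (limma adjusted p = 0.0486), and its adjusted p was 0.0502 with a pseudocount of 0.1, 0.129 without a filter and 0.0638 to 0.192 when any 1 library was left out.

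Of the muscle-restricted channel and regulator genes, Ppp1r14a alone reached the filter. It encodes CPI-17, an inhibitor of myosin light-chain phosphatase. Ppp1r14a stood at 31.7 and 22.5 FPKM in Ncr1Cre and at 31.8 and 27.5 in control, so the genotypes overlapped. The log2 difference was -0.14, with a 95% interval of -0.59 to 0.31 that reaches neither the falls of the actins nor that of Tagln. Kcnmb1, the beta subunit that tunes the large-conductance potassium channel in smooth muscle, stood at 0.055 and 0.18 FPKM in Ncr1Cre and at 0.75 and 0.50 in control. Those values correspond to an estimated 6.0 and 17.0 fragments against 120.7 and 43.9. Myocd, the SRF partner myocardin, stood at 0.045 and 0.026 FPKM in Ncr1Cre and at 0.12 and 0.13 in control. Pln, phospholamban, which restrains the calcium pump of the sarcoplasmic reticulum, stood at 0.34 and 0.21 against 0.25 and 0.29, with overlap. The exons of Pln overlap Cep85l on the other strand. Cep85l stood at 1.76 and 1.87 FPKM in Ncr1Cre and at 4.88 and 4.07 in control, so the Pln values are uncertain. None of Kcnmb1, Myocd and Pln reached the filter. In the fit without it, Myocd was called lower (-0.12, SE 0.012, limma adjusted p = 0.0282) and Kcnmb1 was not (adjusted p = 0.0923). Myocd stood near the floor, since a single fragment of a 1 kb transcript amounts to 0.026 to 0.0476 FPKM. Adding 1 to such low FPKM also shrinks their scatter, so the call of Myocd is uncertain.

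**Figure D2:**
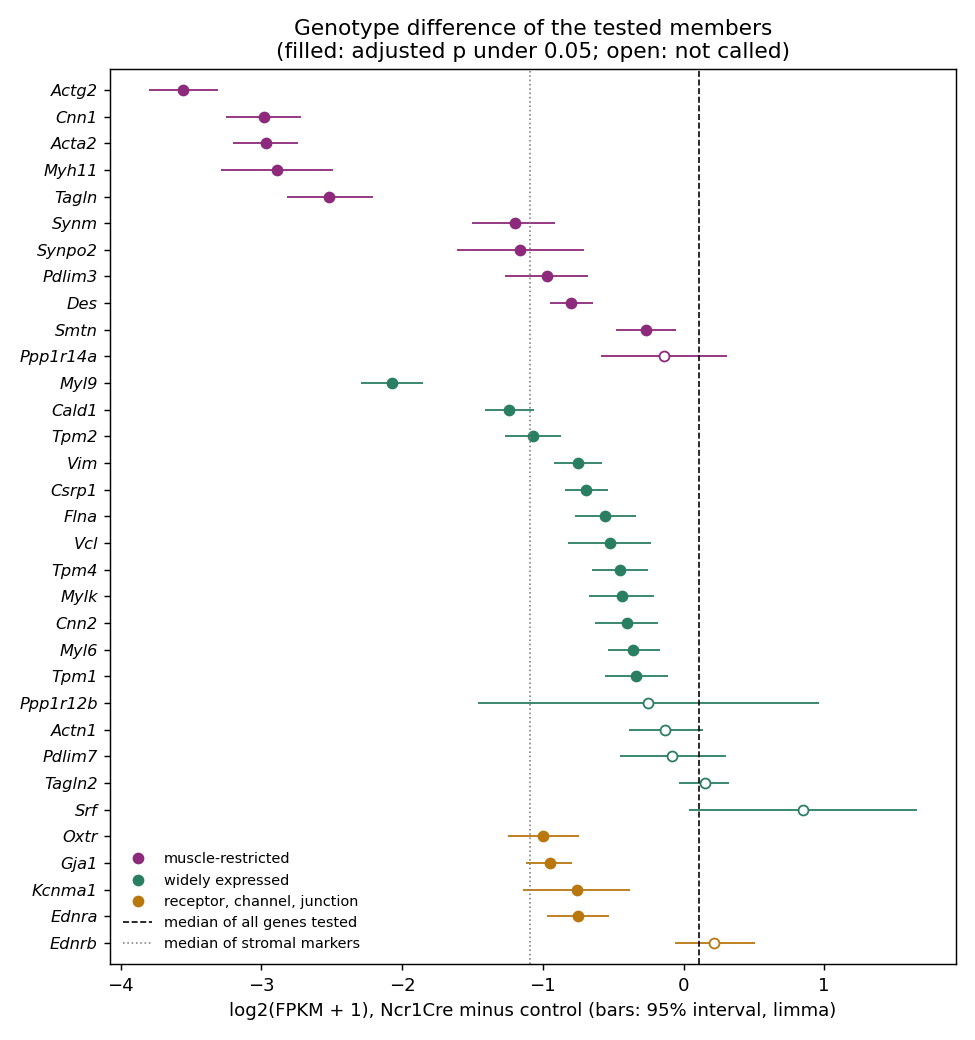
Log2 difference of FPKM + 1, Ncr1Cre minus control, of the 33 tested members with 95% intervals from limma; filled points passed an adjusted p under 0.05, the dashed line is the median of all genes tested (0.11) and the dotted line that of stromal markers (-1.09). Actg2, Cnn1, Acta2, Myh11 and Tagln lie left of -2.5, and Myl9 stands apart from the other widely expressed members.

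Among widely expressed members, the myosin light chains diverged. Myl9, the regulatory light chain typical of smooth muscle, stood at 11.1 and 12.5 FPKM in Ncr1Cre and at 52.5 and 52.3 in control. It fell 4.46-fold (-2.07, SE 0.085, limma adjusted p = 0.000193), further than any other widely expressed member. Myl9 is nearly identical to Myl12a and Myl12b, so its separate value is uncertain. Myl12b is named because of its levels, outside the rule for named genes. It was listed at 1.28 and 1.65 FPKM in Ncr1Cre and at 59.1 and 14.4 in control, and Myl12a at 81.1 and 116 against 202 and 148. Both copies were called lower (limma adjusted p = 0.0081 and 0.031), with control libraries further apart than those of Myl9. Myl6, the essential light chain of smooth-muscle and non-muscle myosin, was the most abundant member. It stood at 485 and 532 FPKM in Ncr1Cre and at 647 and 654 in control, a 1.28-fold fall (-0.36, SE 0.070, limma adjusted p = 0.0123). Its adjusted p lay above 0.05 without Ncr1Cre replicate 1 (0.051) and without either control library (0.0552 and 0.0605), and it was 0.0781 without a filter. Mylk, which encodes the kinase of the regulatory light chain, fell 1.41-fold, from 9.95 and 9.03 FPKM in control to 6.69 and 6.75 in Ncr1Cre (limma adjusted p = 0.0142). Its call was lost without control replicate 1 (log2 difference -0.38).

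The tropomyosins and caldesmon, which coat the actin filament, fell to different degrees. Tpm2, beta tropomyosin, enriched in muscle, stood at 56.5 and 61.0 FPKM in Ncr1Cre and at 119 and 129 in control, a 2.11-fold fall (-1.07, SE 0.078, limma adjusted p = 0.000606). Cald1, caldesmon, fell 2.41-fold, from 60.2 ± 1.11 FPKM (SD, n = 2) to 24.9 ± 0.66. Tpm4, a tropomyosin of non-muscle cells, and Tpm1, alpha tropomyosin, which smooth muscle also uses, had smaller differences. Tpm4 went from 201 ± 15.6 to 147 ± 3.83 (1.37-fold, limma adjusted p = 0.00799) and Tpm1 went from 63.6 ± 2.24 to 50.2 ± 4.54 (1.27-fold, limma adjusted p = 0.0283). The call of Tpm1 was lost without Ncr1Cre replicate 2 (adjusted p = 0.109), without control replicate 1 (0.113), without control replicate 2 (0.0693) and without a filter (0.113). Without a filter Tpm4 was not called either (0.0577). Cald1 and Tpm2 each fell at least 2-fold, as did Myl9 and 0 other widely expressed members.

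The scaffold and adhesion genes fell by less than 2-fold or did not pass. Vim, vimentin, the intermediate filament of mesenchymal cells, fell from 551 ± 7.97 FPKM to 328 ± 17.3 (1.68-fold, limma adjusted p = 0.00104). Csrp1, a LIM protein of muscle and other cells, stood at 151 FPKM in both Ncr1Cre libraries and at 245 and 244 in control (1.62-fold, limma adjusted p = 0.000853). Flna, filamin A, which crosslinks actin, fell 1.48-fold and Vcl, vinculin, which anchors filaments at adhesions, 1.46-fold. The limma adjusted p was 0.00522 for Flna (0.0512 without a filter) and 0.0172 for Vcl (0.105 without a filter, 0.0752 without control replicate 2). Vcl overlaps Ap3m1 on the other strand, which rose (log2 difference 0.93, limma adjusted p = 0.00924). Actn1, alpha-actinin 1, stood at 35.2 and 30.7 FPKM in Ncr1Cre and at 38.1 and 33.9 in control, with overlap and a 95% interval of -0.39 to 0.14 on the log2 scale. Pdlim7, which binds tropomyosin and actinin, overlapped too (-0.08, interval -0.45 to 0.30).

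A set of 5 muscle-restricted genes, and Tpm2 of the widely expressed class, were also set against a relative used by many cell types within the same library, which removes the scaling between libraries. FPKM is per length, so levels of different genes can be compared. Tagln was 0.117 and 0.0987 of the level of Tagln2, the form of non-muscle cells, in the Ncr1Cre libraries, and 0.729 and 0.704 of it in control. Tagln2 itself stood at 153 and 144 FPKM in Ncr1Cre and at 130 and 138 in control and was not called (0.15, 95% interval -0.03 to 0.32), and its sign changed after median rescaling (-0.02). Cnn1 was 0.040 and 0.0535 of Cnn2, a calponin of many cell types, in Ncr1Cre and 0.421 and 0.478 in control. Cnn2 fell 1.33-fold (limma adjusted p = 0.0164), a call lost without Ncr1Cre replicate 2 (0.0606), without control replicate 1 (0.0752) and without a filter (0.0783). Myh11 was 0.052 and 0.0362 of Myh9, a non-muscle myosin heavy chain, against 0.470 and 0.453. Actg2 was 0.00558 and 0.00643 of Actg1, the gamma actin of non-muscle cells, against 0.0913 and 0.0873. Acta2 was 0.0106 and 0.0102 of Actb, the beta actin of non-muscle cells, against 0.209 and 0.213. In this pair the denominator moved as well, since Actb rose from 362 ± 1.33 to 853 ± 104 FPKM. Tpm2 was 0.393 and 0.408 of Tpm4 against 0.627 and 0.609. In all 6 pairs no Ncr1Cre ratio reached a control ratio, with mean ratios 1.54-fold (Tpm2 to Tpm4) to 20.2-fold (Acta2 to Actb) apart. The 5 muscle-restricted genes in these pairs are those already shown to fall far, so the ratios are a description and no separate evidence. The share of other gene pairs without overlap was not computed.

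**Figure D3:**
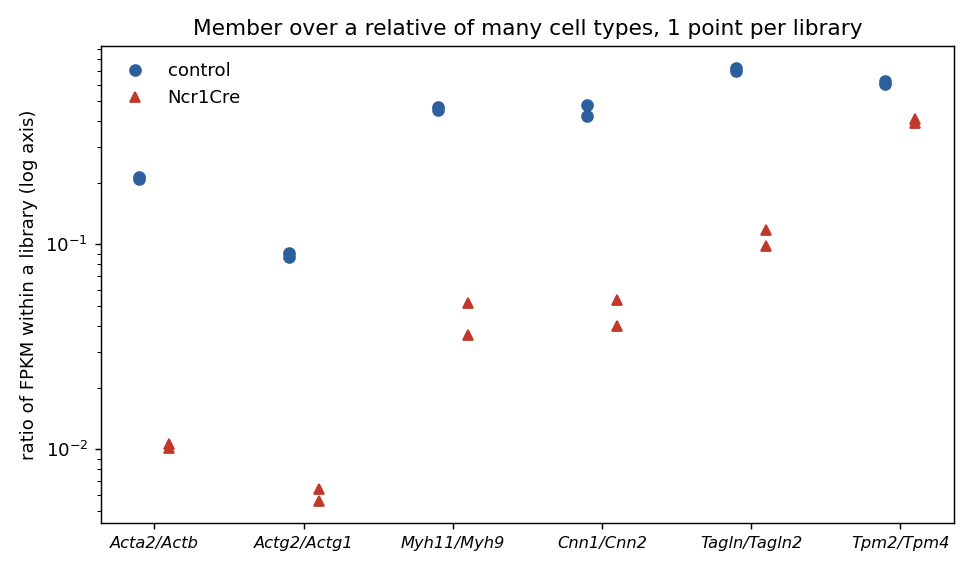
Ratio of a member (5 muscle-restricted genes and the widely expressed Tpm2) to a relative of many cell types within each library (log axis, 1 point per library) in control (circles) and Ncr1Cre (triangles). Control ratios lie above Ncr1Cre ratios in all 6 pairs, closest for Tpm2 to Tpm4 (0.609 and 0.627 against 0.393 and 0.408).

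The regulators had no common direction. Srf, the factor that binds the CArG box, stood at 37.9 and 19.1 FPKM in Ncr1Cre and at 15.5 and 13.5 in control. Both Ncr1Cre libraries were higher, but they lay further apart from each other than the nearer one lay from control. Srf was not called (0.85, SE 0.31, limma adjusted p = 0.0786). It was called higher without Ncr1Cre replicate 2 (1.33, adjusted p = 0.000919) and with the replicate number as a block (0.85, adjusted p = 0.0354), so this result rests on Ncr1Cre replicate 1. Mef2c, a factor of muscle and other lineages, lay under the filter at 0.57 and 0.67 FPKM in Ncr1Cre and at 1.06 and 1.37 in control. Ppp1r12b, a myosin phosphatase subunit, stood at 5.57 and 4.70 FPKM in Ncr1Cre, between control libraries at 11.1 and 3.40. Its log2 difference was -0.98 (adjusted p = 0.0126) without control replicate 2 and 0.48 without control replicate 1, so these libraries give it no direction.

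The receptor, channel and junction genes fell 1.80- to 2.63-fold, with 1 exception. Oxtr, the oxytocin receptor, through which oxytocin makes the myometrium contract, stood at 1.60 and 1.53 FPKM in Ncr1Cre and at 4.22 and 4.02 in control, a 2.63-fold fall (-1.0, SE 0.10, limma adjusted p = 0.00146). Gja1, connexin 43, the gap-junction protein of myometrium and of decidual stroma, stood at 55.6 and 54.3 FPKM in Ncr1Cre and at 109 and 106 in control (1.95-fold, limma adjusted p = 0.000468). Kcnma1, the pore subunit of the large-conductance potassium channel, fell 1.97-fold, from 5.14 and 4.33 FPKM to 2.75 and 2.05 (limma adjusted p = 0.0116). Its call was lost without control replicate 1 (log2 difference -0.66) and without a filter (adjusted p = 0.0912). The endothelin receptors split. Ednra, the form that contracts smooth muscle, stood at 5.76 and 5.91 FPKM in Ncr1Cre and at 10.7 and 10.3 in control, a 1.80-fold fall (limma adjusted p = 0.00212). Ednrb, the receptor of endothelium and other cells, stood at 4.19 and 4.50 against 3.88 and 3.30 and was not called (0.22, 95% interval -0.06 to 0.51). The difference between the receptors was not tested.

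By the median of each list, other genes of the pathway moved less than the leading members. Of 31 genes of calcium and RhoA contraction signalling, 25 were tested, with a median log2 difference of -0.31. Beside 17.6% and 30.9% of all genes, 11 of these were called lower and 3 higher. Atp2b4, a plasma-membrane calcium pump, stood at 12.8 ± 0.81 FPKM (SD, n = 2) in control and 6.16 ± 0.37 in Ncr1Cre, and Pde5a, which degrades cyclic GMP, at 3.22 ± 0.17 and 1.39 ± 0.11. Ptger3, a prostaglandin E receptor, stood at 7.62 ± 0.61 and 3.72 ± 0.61. Itpr1, a calcium release channel, was higher in Ncr1Cre, at 5.37 ± 0.65 against 3.10 ± 0.16. Of 30 cofactors and targets of SRF and the myocardin family, 25 were tested, with a median of -0.51. Beside the same shares of all genes, 16 of these were called lower and 1 higher. Hspb7, a small heat-shock protein of muscle, stood at 11.4 ± 0.83 in control and 3.89 ± 0.12 in Ncr1Cre, and Hspb8, a related protein, at 92.5 ± 0.45 and 49.3 ± 0.74. Itga8, an integrin of smooth muscle and stroma, stood at 7.43 ± 0.13 and 2.84 ± 0.19. The gene called higher was Mustn1, a musculoskeletal nuclear protein, at 2.47 ± 0.35 in control and 8.75 ± 0.72 in Ncr1Cre. Casq2 of the same list is named for its levels, outside the rule for named genes. It lay under the filter at 0 and 0.017 FPKM in Ncr1Cre and at 0.17 and 0.28 in control, without overlap. Non-muscle actin and myosin genes went both ways, with a median of 0.10. Of 19 tested, 7 were called lower and 7 higher, beside 17.6% and 30.9% of all genes, and 5 were not called. In this list Myh14 rose from 20.5 ± 1.77 to 57.7 ± 6.94 and Ezr, ezrin of epithelial microvilli, from 81.0 ± 1.37 to 192 ± 6.81. Myh10 fell from 23.6 ± 0.19 to 12.4 ± 0.082. The largest fall of the list was that of Myl12b (log2 difference -3.63), beyond that of Actg2 (-3.56). The control libraries of Myl12b lay far apart, at 59.1 and 14.4 FPKM.

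Markers of other cells moved between the same libraries, and their part in the muscle result was not tested. Of 22 markers of decidual stroma and fibroblasts, 20 were called lower and 1 higher, beside 17.6% and 30.9% of all genes. The median log2 difference of these markers was -1.09. Their summed level was 16105.3 to 16176.3 FPKM in Ncr1Cre and 36315.4 to 36640.9 in control, and 0 of them were at 0. The marker called higher was Prl8a2, a decidual prolactin, which rose from 3.73 ± 0.54 to 23.3 ± 1.96 FPKM (log2 difference 2.36, limma adjusted p = 0.000273). The falls of the other 20 ran from -0.36 to -1.81, the last being Postn, and Pdgfra fell from 113 ± 0.82 to 39.7 ± 1.00 FPKM. The log2 differences of Actg2, Cnn1, Acta2, Myh11 and Tagln (-2.52 and below) lay beyond this range, and that of Myl9 (-2.07) did so too. Those of Des (-0.80), Oxtr (-1.0), Gja1 (-0.95) and the other members called lower lay within it or nearer to 0. Adding 1 to FPKM shrinks the differences of low genes more than those of abundant ones. By the ratio of means Synm fell 3.81-fold, further than Postn (3.52-fold). Of 13 pericyte markers 10 were tested. Beside 17.6% and 30.9% of all genes, 6 of these markers were called lower and 2 higher, with a median of -0.52. Their summed level was 71.7 to 72.5 FPKM in Ncr1Cre and 102.4 to 103.3 in control. Rgs5, a defining pericyte gene, stood at 1.41 ± 0.15 FPKM in Ncr1Cre and 1.36 ± 0.021 in control and was not called. Kcnj8, also defining, was called lower, at 1.21 ± 0.095 FPKM against 2.49 ± 0.38 in control. Abcc9, defining too, lay under the filter at 0.26 ± 0.017 against 0.93 ± 0.14, without overlap. Of the other markers, Heyl was called lower (2.10 ± 0.27 against 5.15 ± 0.12) and Ndufa4l2 higher (10.9 ± 1.23 against 6.47 ± 0.25). Pdgfrb (19.2 ± 1.17 against 34.2 ± 1.96) and Mcam (1.28 ± 0.084 against 3.51 ± 0.35) were called lower too.

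Of 26 skeletal and cardiac muscle genes 4 reached the filter, with 1 called lower (Acta1) and 1 higher, beside 17.6% and 30.9% of all genes. The median of the 4 was -0.18, and the sum of the list was 10.5 to 13.5 FPKM in every library. Myh2, Myod1 and Myog were at 0 in all 4 libraries, and Myh1, Myh6 and Ckm at 0 in both Ncr1Cre libraries. The gene called higher was Actn2, a sarcomeric alpha-actinin, at 2.28 ± 0.49 FPKM in Ncr1Cre and 0.063 ± 0.066 in control (36.3-fold, log2 difference 1.62, limma adjusted p = 0.0012). Its control mean lay under the filter, as did the Ncr1Cre mean of Acta1. Each was thus tested because of the genotype with the higher level. Some genes under the filter are named for their levels, outside the rule for named genes. Mb, myoglobin, Tnnt2, cardiac troponin T, Tnni3 and Mylpf had higher means in Ncr1Cre without overlap. Mb stood at 0.86 ± 0.25 FPKM against 0.079 ± 0.051 in control and Tnnt2 at 1.41 ± 0.29 against 0.26 ± 0.20. Tnni3 stood at 0.052 and 1.32 FPKM in Ncr1Cre and at 0 in both control libraries. Mylpf stood at 0.45 and 1.39 FPKM in Ncr1Cre and at 0.42 and 0.35 in control. Ckm, Myl3, Actc1 and Neb went the other way without overlap. In control Ckm stood at 0.13 ± 0.044 FPKM and Myl3 at 0.31 ± 0.080, and both were at 0 in Ncr1Cre. Actc1 stood at 0 and 0.058 FPKM in Ncr1Cre and at 0.071 and 0.26 in control. Neb stood at 0.017 and 0.019 FPKM in Ncr1Cre and at 0.43 and 0.027 in control. Of all 11762 genes tested, which passed the filter, 76.2% had no overlap in either direction. The share among genes under the filter, such as these, is not given here. Epithelial markers were mostly higher in Ncr1Cre. Beside 30.9% and 17.6% of all genes, 14 of 15 epithelial markers were called higher and 0 lower, with a median of 2.05. Their sum was 2951.2 to 3001.8 FPKM in Ncr1Cre and 734.1 to 738.2 in control. The 12 NK-cell and leukocyte genes summed to 32.7 to 33.2 FPKM in Ncr1Cre and 22.7 to 23.0 in control. Of the 5 tested 3 were called higher and 0 lower, beside 30.9% and 17.6% of all genes. The 10 endothelial genes summed to 32.5 FPKM in both Ncr1Cre libraries and to 17.7 and 17.8 in control. Of 6 tested, 3 were called higher and 1 lower, beside the same shares of all genes. In the control libraries Actg2 alone, at 80.8 and 81.5 FPKM, exceeded the sum of the NK-cell and leukocyte list.

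**Figure D4:**
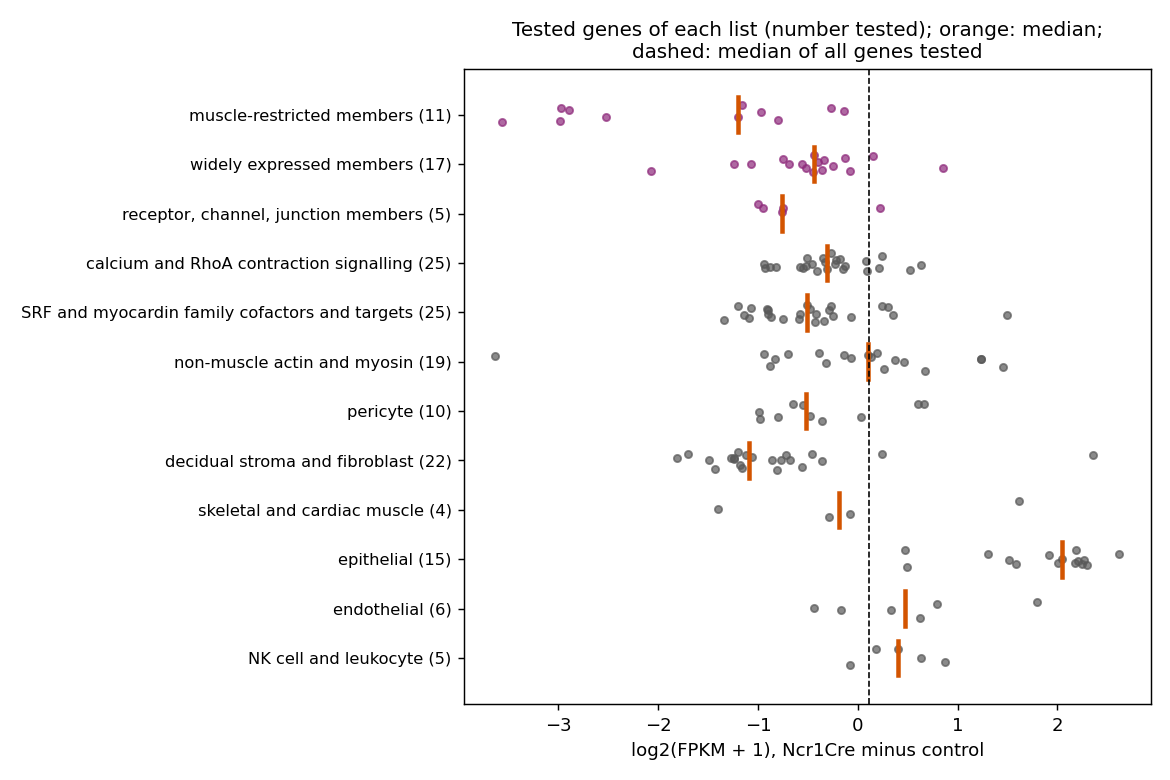
Log2 difference of FPKM + 1, Ncr1Cre minus control, of the tested genes of each list (1 point per gene, number tested in brackets), with the list's median in orange and the median of all genes tested dashed. The muscle-restricted members (median -1.20) and stromal markers (-1.09) lie left of the dashed line and epithelial markers (2.05) right of it.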

How the data were processed

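Each library's file holds FPKM, which the authors computed with Cufflinks on mm9, per the submitters' processing notes. Its version, the aligner, annotation, strand setting and handling of shared reads were not given in the sources used here. A part of the genotype that both groups share is not reported here. Groups and replicate numbers come from the labels. Because FPKM are not counts, log2(FPKM + 1) was fitted with limma 3.58.1 (R 4.3.3, trended variance prior), keeping the 11762 genes that average 1 FPKM or more. Tests are two-sided, with p-values adjusted across every tested gene. With 2 libraries against 2 an exact permutation test cannot go below 0.333. Depth was estimated from low values of genes with 1 annotated transcript (GENCODE annotation of GRCm38). Of these values 32.9% to 35.6% were whole fragments within 0.02, so no count test was run. The replicate number served as an alternative block, because same-numbered libraries share a number alone (correlation of replicate differences across genes 0.161). The members and lists were chosen with earlier results of these data known. All members were described, and up to 4 genes of smallest p from other lists, besides Ncr1, Ptprc, some of the defining markers and the relatives in ratios. The remaining defining markers, such as Dcn, Epcam, Cdh1 and Cdh5, were given in list summaries alone. Scripts were tested on simulated data.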

Additional observations from a re-analysis of the deposited data

How the results depend on the processing

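The alternatives changed the size of some counts and medians more than their direction. Of 33 tested members, 18 kept direction and call in all 10 alternatives in which they were tested, and 16 of the 26 called lower were called in each. The muscle-restricted median of -1.20 was -1.82 with a pseudocount of 0.1, -0.99 without a filter, -1.84 over genes averaging 5 FPKM or more, -1.37 after median rescaling and -1.43 after quantile normalization. The widely expressed median of -0.44 was -0.60 after either rescaling. Without a filter 6 widely expressed members were called lower, where more genes of low value enter the fit. With the replicate block 1 member (Srf, widely expressed) was called higher, and the block changed no other member's call. Leaving out 1 library gave 20 to 24 members lower and 0 to 1 higher (beside 1354 to 1883 of all 11762 genes lower and 2738 to 3221 higher), 9 muscle-restricted members lower in each case, and 8 to 11 widely expressed members lower and 0 to 1 higher. The medians then ran from -1.39 to -1.13 and from -0.45 to -0.38. With a library left out, the lone library is assumed to vary like the others. Signs reversed for 4 uncalled genes: Tagln2 (-0.02) after median rescaling, Ppp1r14a (0.10) without Ncr1Cre replicate 2, and, with 1 library left out, Pdlim7 (-0.27 to 0.12) and Ppp1r12b (-0.98 to 0.48). The cause was not tested.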
